A study of Mus musculus with 12 samples.

Results

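The forkhead (Fox) genes encode transcription factors that share a winged-helix DNA-binding domain, and 34 of them, taken by name, were set against the list of BRG1-binding regions of wild-type cardiac precursors (CPs). These 34 stand beside 22317 other protein-coding genes of the mm9 annotation (GENCODE release M1) on the chromosomes that carry a region. A gene was counted as having a region at its promoter when a distinct region of the list overlapped the 1 kb on either side of any of its annotated transcription start sites (TSSs). It was counted as having a region in its body when one overlapped the gene from start to end, and near it when one lay in the gene or within 100 kb of it. All 34 genes were found in the annotation, which types Foxl1 as a pseudogene and the others as protein coding.

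BRG1 is the ATPase of the BAF chromatin remodeling complexes, and the list comes from ChIPseq, in which DNA bound to a protein is recovered with an antibody and sequenced. The CPs were differentiated from wild-type mouse embryonic stem cells of strain W4/129S6, first as embryoid bodies with VEGF, Activin and BMP4 and then as a monolayer with FGFs, and were crosslinked with disuccinimidyl glutarate and formaldehyde. Behind the list stand 2 BRG1 ChIP libraries and 1 input library, while the other 9 libraries of the series (BAF170-deficient CPs, and cardiomyocytes of wild-type, BAF170-deficient and BAF60c-deficient cells) are not part of the comparison. Many regions stand on several rows of the list, for a reason not given in the sources used here, and the regions are assigned to CPs by the label of the list alone. The list gives positions only, so that no value below has a spread between replicates, the depth is unknown, and a gene without a region may be unbound or below the threshold of the authors. Expression was not used here, and the CP label was therefore not checked against marker genes.

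Forkhead proteins are known for very different tasks. FoxA proteins can bind compacted chromatin and open it during the formation of endoderm, FoxC proteins shape somites, vessels and the outflow tract of the heart, and FOXH1 carries Nodal signals to DNA together with SMAD proteins. FoxO proteins are held in the cytoplasm when insulin signaling is active, and FOXM1 drives genes of mitosis. The members were ordered by such roles, as known in general, into 21 genes of particular lineages (3 of endoderm and floor plate, 8 of mesoderm, vessel and heart, 10 of ectoderm, nervous system and single organs) and 13 genes of classes that are mostly expressed widely (FoxO, FoxP, Foxj2, Foxj3, FoxK, Foxm1, Foxn2 and Foxn3). Foxo6 and Foxp2 are more restricted than the rest of their classes.

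The sequences under the regions differed in kind, and a few are shown before the counts. At Foxo1 and in an intron of Foxp4 the region held the word TGTTTAC, a core that forkhead proteins bind, on one of the strands. The sequences below are from mm9, read 5′ to 3′ on the strand of the gene, with that word in capitals. The first is the 300 bases before the Foxo1 TSS (chr3:52071959-52072258, plus strand), and the second is the whole Foxp4 region (chr17:48024466-48024685, minus strand).
Foxo1: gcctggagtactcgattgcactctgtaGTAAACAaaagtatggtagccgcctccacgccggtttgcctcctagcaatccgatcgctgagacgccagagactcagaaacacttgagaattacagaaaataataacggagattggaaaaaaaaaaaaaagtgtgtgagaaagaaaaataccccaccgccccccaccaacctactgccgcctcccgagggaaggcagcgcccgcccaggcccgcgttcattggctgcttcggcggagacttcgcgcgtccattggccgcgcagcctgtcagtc
Foxp4: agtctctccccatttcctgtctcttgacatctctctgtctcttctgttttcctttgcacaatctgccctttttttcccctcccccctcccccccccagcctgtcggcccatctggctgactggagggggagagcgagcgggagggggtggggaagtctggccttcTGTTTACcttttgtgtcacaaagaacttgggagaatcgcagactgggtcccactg
Most regions were dense in CpG dinucleotides, and the whole region at Foxo1 held 12.0 per 100 bp. CpG dinucleotides are in capitals in the next 4 sequences. They are the 300 bases before the Foxo3 TSS (chr10:41996562-41996861, minus strand), 300 bases at the centre of the Foxc1 region, which code for part of its forkhead domain (chr13:31899356-31899655, plus strand), the whole region downstream of Foxc1 (chr13:31903426-31903685, plus strand) and 300 bases before an internal TSS of Foxp1 (chr6:98978308-98978607, minus strand).
Foxo3: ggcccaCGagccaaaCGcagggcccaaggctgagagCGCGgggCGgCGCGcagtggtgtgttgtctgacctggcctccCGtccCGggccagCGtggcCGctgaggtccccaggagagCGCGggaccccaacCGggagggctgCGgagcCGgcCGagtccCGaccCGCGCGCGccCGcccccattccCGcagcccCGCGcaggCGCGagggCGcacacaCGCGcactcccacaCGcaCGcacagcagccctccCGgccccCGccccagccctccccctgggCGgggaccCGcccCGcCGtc
Foxc1 coding: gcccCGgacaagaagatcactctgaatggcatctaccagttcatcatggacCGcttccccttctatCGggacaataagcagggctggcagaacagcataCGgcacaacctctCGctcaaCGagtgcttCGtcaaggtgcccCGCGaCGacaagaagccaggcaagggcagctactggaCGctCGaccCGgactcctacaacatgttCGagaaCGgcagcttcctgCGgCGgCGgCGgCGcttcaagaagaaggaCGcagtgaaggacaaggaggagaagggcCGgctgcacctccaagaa
Foxc1 downstream: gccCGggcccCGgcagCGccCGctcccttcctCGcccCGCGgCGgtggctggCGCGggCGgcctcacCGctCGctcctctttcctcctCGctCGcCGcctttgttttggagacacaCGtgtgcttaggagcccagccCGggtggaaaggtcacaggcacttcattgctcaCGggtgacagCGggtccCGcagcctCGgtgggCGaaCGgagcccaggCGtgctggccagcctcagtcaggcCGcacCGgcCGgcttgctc
Foxp1 internal: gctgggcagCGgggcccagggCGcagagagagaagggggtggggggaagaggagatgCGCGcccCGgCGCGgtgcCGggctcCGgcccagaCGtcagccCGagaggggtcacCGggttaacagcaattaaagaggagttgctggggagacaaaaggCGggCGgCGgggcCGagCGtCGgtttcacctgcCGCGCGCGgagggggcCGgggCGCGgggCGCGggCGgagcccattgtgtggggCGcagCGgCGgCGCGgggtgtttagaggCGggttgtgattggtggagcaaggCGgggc
CpG dinucleotides stood at 13.0 per 100 bp in the Foxo3 sequence and 7.33 in the coding sequence of Foxc1. The values were 10.8 downstream of Foxc1, 11.7 at Foxp1, 7.33 before the Foxo1 TSS and 1.82 in the Foxp4 intron.

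Of the 34 forkhead genes, 10 had a region at the promoter, which is 29.4% (95% Wilson interval 16.8% to 46.2%, counting error over genes only), where 11.9% of the other protein-coding genes had one. These 10 were Foxo1, Foxo3, Foxo6, Foxp1, Foxp4, Foxj2, Foxj3, Foxn2, Foxc1 and Foxl1. A region lay in the body of 10 genes (29.4%), against 12.3% of the others, and within 100 kb of 16 genes (47.1%, interval 31.5% to 63.3%), against 40.4% of the others. The body set differed from the promoter set by Foxc2 in place of Foxo6. No gene had more than 1 region at its promoter, and up to 3 regions lay within 100 kb.

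Regions of this list lie mostly at CpG-rich promoters, and forkhead promoters are CpG rich, so each member was set beside the genes of like CpG count. In the 2 kb around the TSS, taking the richest annotated TSS of a gene, the members had a median of 148 CpG dinucleotides (32 to 215), and the other protein-coding genes a median of 66. Among the other genes whose count was within 5 of that of a member, 34.2% had a region at the promoter, averaged over the members. The 29.4% of the members lay under that value, and their interval included it. With gene length also matched within a factor of 1.5, the share with a region in the body was 29.3%, as against 29.4% of the members. Some members had few such matched genes, 5 each for Foxd2 and Foxl2 and 8 for Foxb2, and every member had the same weight. With the number of genes in the neighbourhood matched in place of length, the share within 100 kb was 59.4%, against 47.1% of the members. Thus, the excess over all protein-coding genes was not present against genes of the same CpG count. These shares are descriptions of 1 list and were not tested.

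**Figure D1:**
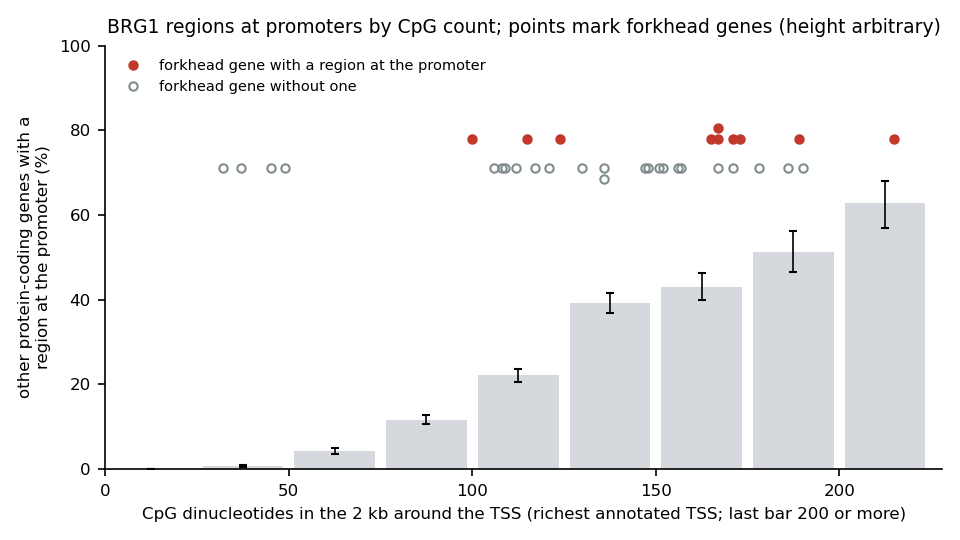
Share of other protein-coding genes with a region at the promoter (y axis, percent, bars with 95% Wilson intervals) by the number of CpG dinucleotides in the 2 kb around the TSS (x axis). Points mark the 34 forkhead genes at an arbitrary height, filled for the 10 with a region at the promoter and open for the 24 without; the bars rise from 0.0191% under 25 CpGs to 62.7% at 200 or more.

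Among the other genes, the share with a region at the promoter rose with the CpG count, from 0.683% at 25 to 49 CpGs and 22.1% at 100 to 124 to 62.7% at 200 or more. The 4 forkhead genes with a count under 50, Foxn1 (32), Foxi1 (37), Foxh1 (45) and Foxs1 (49), had no region within 100 kb. Among the 30 members with 100 or more CpGs, those with and without a region overlapped in their counts: those with a region ranged from 100 (Foxj2) to 215 (Foxo1), with a median of 167, and those without from 106 (Foxn4) to 190 (Foxl2). Foxl2, which encodes a factor of the ovary and eyelid, had 190 CpGs and Foxd2 had 186, and neither had a region within 100 kb. By class, 3 of 9 members with 100 to 124 CpGs had a region at the promoter, against 22.1% of other genes. In the class of 125 to 149 CpGs, 0 of 5 members had one, against 39.2%, and in that of 150 to 174, 5 of 11, against 43.1%. Of the members with 175 to 199 CpGs, 1 of 4 had one, against 51.3%, and the single member with 200 or more, Foxo1, had one, against 62.7%. The members thus lay above the other genes in some classes and below them in others, with few members in each.

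The counts differed between the roles. Of the 13 genes of the widely expressed classes, 8 had a region at the promoter (61.5%, interval 35.5% to 82.3%), where their CpG-matched genes had 40.0%. Of the 21 lineage genes, 2 had one (9.52%, interval 2.65% to 28.9%), where their matched genes had 30.6%. Within 100 kb, the counts were 11 of 13 (84.6%, interval 57.8% to 95.7%, matched 63.3%) and 5 of 21 (23.8%, interval 10.6% to 45.1%, matched 57.0%). In the body, they were 7 of 13 (53.8%, matched 45.1%) and 3 of 21 (14.3%, matched 19.6%), nearer to the matched shares. The 100 kb were counted from both ends of a gene, and gene length was not part of that match. Counted from the outermost TSS alone, 13 of all 34 members (38.2%) had a region within 100 kb. Foxk1, Foxk2 and Foxp1, all of the widely expressed classes, then had none, with nearest regions at 149, 133 and 238 kb. None of the 10 genes of ectoderm, nervous system and single organs had a region within 100 kb (0%, upper bound of the interval 27.8%), where 54.0% of matched genes had one. The CpG counts of the widely expressed and the lineage genes overlapped, with medians of 165 and 147. The roles were chosen with earlier results of these data known. The difference between the roles was not tested. It goes along with gene structure. Counting the transcript with the most exons of each gene, the median was 10 exons in the widely expressed classes and 2 in the lineage genes. The part of structure was not tested either. Of the 9 single-exon genes, 1 had a region at the promoter (11.1%, interval 1.99% to 43.5%, matched 39.8%). So had 3 of 12 genes with 2 or 3 exons (matched 31.2%) and 6 of 13 with 4 or more (matched 33.0%).

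**Figure D2:**
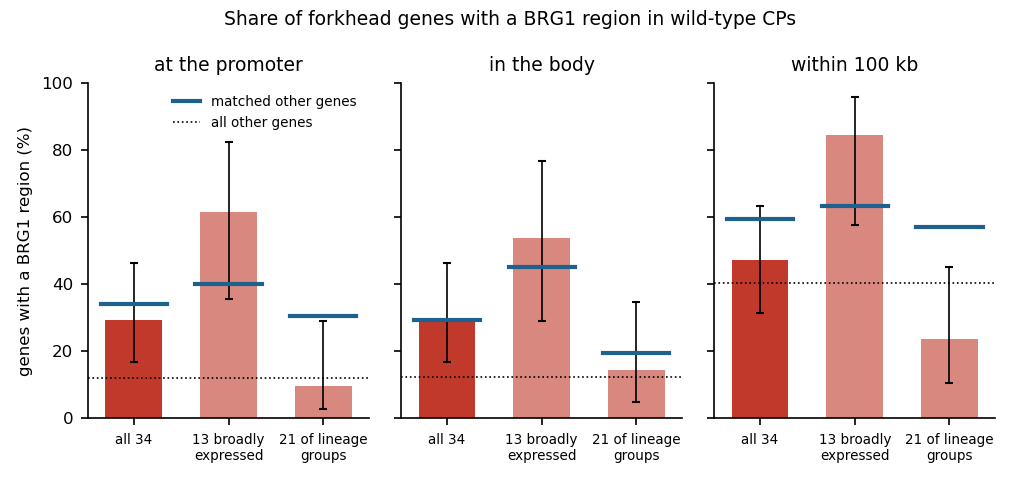
Share of genes with a BRG1 region (y axis, percent) at the promoter, in the body and within 100 kb for all 34 forkhead genes, the 13 of widely expressed classes and the 21 lineage genes; black lines are 95% Wilson intervals, blue lines the matched other genes and dotted lines all other protein-coding genes. At the promoter the bars stand at 29.4%, 61.5% and 9.52%, with matched values of 34.2%, 40.0% and 30.6%.

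All 3 FoxO genes of the list had a region at the promoter (interval 43.9% to 100%), where 52.3% of their CpG-matched genes had one. The Foxo3 region was the widest at any forkhead gene. Foxo1 (ENSMUSG00000044167, chromosome 3, 52072259 to 52154031, plus strand), a factor of insulin signaling and of vessel growth, had a region of 1280 bp from 52071626 to 52072905, which reached from 633 bp upstream to 646 bp downstream of its TSS. It was listed on 2 rows and held 182 bp of coding sequence, and it also lay at the TSS of a noncoding transcript gene, RP24-337A16.1. Foxo3 (ENSMUSG00000048756, chromosome 10, 41901647 to 41996561, minus strand), which holds stem cells in quiescence, had a region of 2400 bp from 41995506 to 41997905. This region held 1344 bp upstream, 230 bp of exon and 826 bp of intron, was listed on 6 rows, and 14 of the 3473 distinct regions were at least as wide. Foxo6 (ENSMUSG00000052135, chromosome 4, 119939684 to 119959954, minus strand), the FoxO gene known mainly from brain, had a region of 260 bp from 119960246 to 119960505, wholly upstream, with its nearer edge 292 bp from the TSS. Its 13.8 CpGs per 100 bp exceeded the 8.62 of the wide Foxo3 region.

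Of the FoxP genes, Foxp1 and Foxp4 had a region at an internal TSS and none at the outermost one. Foxp1 (ENSMUSG00000030067, chromosome 6, 98875332 to 99216526, minus strand), known for roles in endocardium, outflow tract and myocardial growth, has 10 annotated TSS positions. Its region of 720 bp from 98978086 to 98978805 lay 238 kb downstream of the outermost TSS and spanned an internal TSS of a protein-coding transcript, from 498 bp upstream to 221 bp downstream of it. Foxp4 (ENSMUSG00000023991, chromosome 17, 48004082 to 48061594, minus strand), with 9 TSS positions, had a region of 220 bp from 48024466 to 48024685 that lay wholly in an intron, 37.0 kb into the gene and 414 to 633 bp downstream of the TSS of a transcript that is not protein coding. With 4 CpGs it was the poorest in CpG of the regions at forkhead promoters. Foxp2, known from the nervous system and lung, has 15 TSS positions, and its nearest region was 1831 kb upstream of the gene.

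The other widely expressed genes with a region had it over the TSS. Foxj3 (ENSMUSG00000032998, chromosome 4, 119212266 to 119301724, plus strand) had a region of 900 bp from 119211866 to 119212765, on 2 rows, which also lay at the promoter of AA415398. A further region of 80 bp from 119334966 to 119335045 lay 33241 bp past its end. Foxn2 (ENSMUSG00000034998, chromosome 17, 88840051 to 88889873, plus strand) had a region of 800 bp from 88839646 to 88840445, centred 5.50 bp upstream of the TSS. Foxj2 (ENSMUSG00000003154, chromosome 6, 122769932 to 122795384, plus strand) had a region of 920 bp from 122769906 to 122770825, of which 26 bp lay upstream and 894 bp in the first exon, and a noncoding gene, Gm4485, has a TSS there as well. Foxj2 had 100 CpGs around its TSS, the lowest count of any member with a region, and 17.4% of its CpG-matched genes had one.

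Foxk1, Foxk2, Foxm1 and Foxn3 had no region at the promoter or in the body. FOXK proteins recruit the SIN3A corepressor, and their nearest regions lay at the promoters of other genes, that of Radil 88277 bp past the end of Foxk1 and that of Rab40b 78275 bp past the end of Foxk2. The region nearest to Foxm1, of 720 bp, lay 62.4 kb upstream at the promoter of Tead4, which encodes a partner of the YAP coactivator. For Foxk2, with 178 CpGs, 44.0% of the matched genes had a region at the promoter, and for Foxk1 and Foxm1, both with 136, it was 41.4%. Foxn3, whose product acts in a DNA damage checkpoint, had its nearest region 113 kb from the gene.

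Among the genes of mesoderm, vessel and heart, the regions were at Foxc1 and at the neighbours Foxc2 and Foxl1. Foxc1 (ENSMUSG00000050295, chromosome 13, 31898515 to 31902504, plus strand) is a single exon, and its region of 2000 bp from 31898506 to 31900505 began 9 bp before the TSS and ran into the gene, with 1429 bp in coding sequence. It was listed on 6 rows, and 38 of all distinct regions were at least as wide. A separate region of 260 bp, whose sequence is printed above, lay 921 bp past the annotated end of the gene. Foxc2 (ENSMUSG00000046714, chromosome 8, 123640071 to 123642792, plus strand), also a single exon, had a region of 920 bp from 123641206 to 123642125, on 2 rows, with 791 bp in coding sequence. Its first base was 1135 bp downstream of the TSS, just outside the window of 1 kb, and it was the nearest miss among the members, while the Foxp4 region at 414 bp was the farthest inside. At both Foxc genes the region thus lay over coding sequence, with its centre 0.991 kb and 1.59 kb from the TSS.

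Foxl1 (ENSMUSG00000043867, chromosome 8, 123651840 to 123652929, plus strand), a factor of the gut mesenchyme, is annotated in mm9 as a pseudogene of 3 exons, while RefSeq has it as protein coding, and its annotated TSS is uncertain. A region of 140 bp from 123651766 to 123651905 lay over the annotated start. This region lay 11.8 kb downstream of the Foxc2 TSS, and the Foxc2 region lay 10.2 kb upstream of the Foxl1 TSS, so that the counts within 100 kb share them. Both genes also shared a region of 440 bp from 123693866 to 123694305, which lay 54.0 kb downstream of the Foxc2 TSS, with a GC content of 48.4% and 1.59 CpGs per 100 bp. A protein-coding gene model, Gm20388, overlaps all 3 regions.

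Foxd1, a gene of the kidney stroma and the retina, had 2 regions at like distances on either side and none at its promoter. The upstream region, of 1280 bp, was 37.2 kb away and lay at the promoter of Btf3. The downstream region, of 340 bp from 99161026 to 99161365 on chromosome 13, was 37.0 kb away, overlapped no annotated gene and had 13.5 CpGs per 100 bp. Foxf2, Foxd2, Foxs1 and Foxh1 had no region within 100 kb, and their nearest regions were 182, 154, 225 and 637 kb from the TSS. Foxf2, a gene of the gut mesenchyme and of brain pericytes, had the same 167 CpGs as Foxc1 and lies on the same chromosome, with the Foxc1 region as the nearest to it. Foxh1 had 45 CpGs, and 1.47% of its matched genes had a region at the promoter.

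None of the 3 genes of endoderm and floor plate had a region at the promoter (upper bound of the interval 56.1%). Of their CpG-matched genes, 35.3% had one. Foxa1, Foxa2 and Foxa3 encode the pioneer factors of liver and gut, and had 156, 130 and 121 CpGs. The nearest region was 1585 kb upstream of Foxa1 and 327 kb upstream of Foxa2. Foxa3 had 2 regions within 100 kb, and both lay at promoters of other genes, that of Irf2bp1 at 19.3 kb downstream of its TSS and that of Six5 at 71.7 kb upstream.

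The 10 genes of ectoderm, nervous system and single organs were Foxb1, Foxb2, Foxd3, Foxe1, Foxi1, Foxj1, Foxl2, Foxn1, Foxn4 and Foxq1. They include Foxd3 of the neural crest, Foxe1 of the thyroid, Foxj1 of ciliated cells, Foxn1 of the thymus and Foxn4 of the retina. Their nearest regions lay between 108 kb (Foxe1) and 742 kb (Foxb1) from the TSS. At Foxe1 the gap between gene and region was 105 kb, the nearest outside the limit of 100 kb, and Foxk1, at 88.3 kb, was the farthest inside it. Besides the low counts of Foxi1 and Foxn1, Foxn4 (106), Foxb1 (108) and Foxj1 (112) lay in the lower part of the range of members with a region. Foxl2 (190), Foxe1 (171), Foxd3 (157), Foxb2 (152) and Foxq1 (147) were as rich as members with a region.

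**Figure D3:**
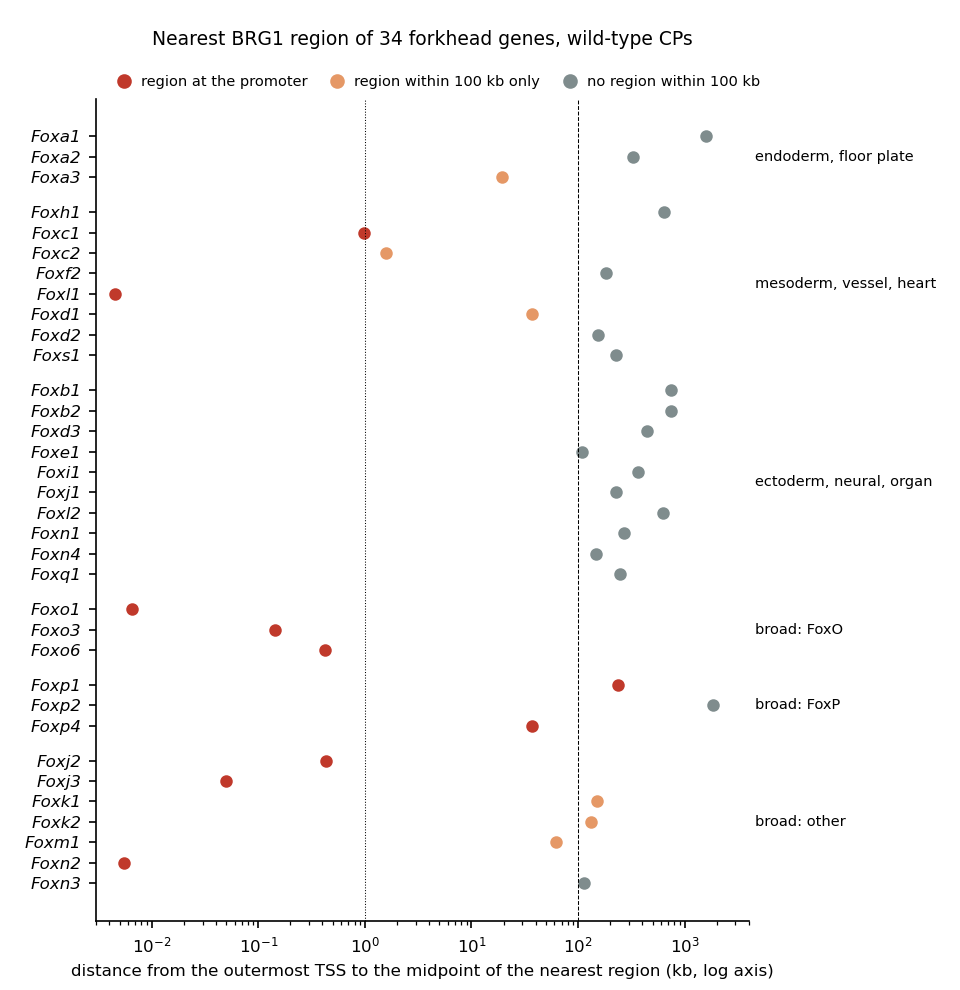
Distance from the outermost TSS to the midpoint of the nearest region (x axis, kb, log scale) for each forkhead gene (y axis), ordered by role. Red marks genes with a region at any annotated TSS, orange those with one within 100 kb only and grey those with none; lines stand at 1 and 100 kb, and all 10 genes of the ectoderm, nervous system and organ group are grey, at 108 to 742 kb.

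Over all members, the distance from the outermost TSS to the nearest region had a median of 148 kb, with quartiles at 6.02 and 313 kb, and over the other protein-coding genes a median of 174 kb, with quartiles at 52.1 and 542 kb. The median was 37.0 kb in the widely expressed classes and 225 kb in the lineage genes. The ranges overlapped almost wholly: widely expressed genes spanned 0.00550 to 1831 kb, and lineage genes 0.00450 to 1585 kb. The distances of Foxp1 and Foxp4, whose regions are at internal TSSs, are long by this measure.

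Of the 6 members with a region within 100 kb but not at the promoter, Foxc2 had it in the body and Foxd1 had one outside annotated genes. In Foxa3, Foxk1, Foxk2 and Foxm1, each region within 100 kb lay at the promoter of another protein-coding gene. Without such regions the count within 100 kb fell from 16 to 12 of 34 (35.3%).

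The regions at forkhead promoters were wider at the median than those at other promoters. Their median width was 850 bp (140 to 2400 bp, 10 regions), and that of 2501 regions at the promoters of other protein-coding genes was 420 bp, with quartiles at 200 and 720 bp. Of the 10, 3 were at least 1000 bp wide (interval 10.8% to 60.3%), against 12.4% of the others, and 4 were on more than 1 row (interval 16.8% to 68.7%), against 27.0%. The 2 regions listed on 6 rows, at Foxc1 and Foxo3, compare with 1.32% of the others that were on 6 rows or more. What the number of rows stands for is not given in the sources used here. The other promoters were not matched on CpG count here. The median count was 167 in members with a region at the promoter and 128 in other genes with one. The differences in width and rows rest on few regions and were not tested.

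**Figure D4:**
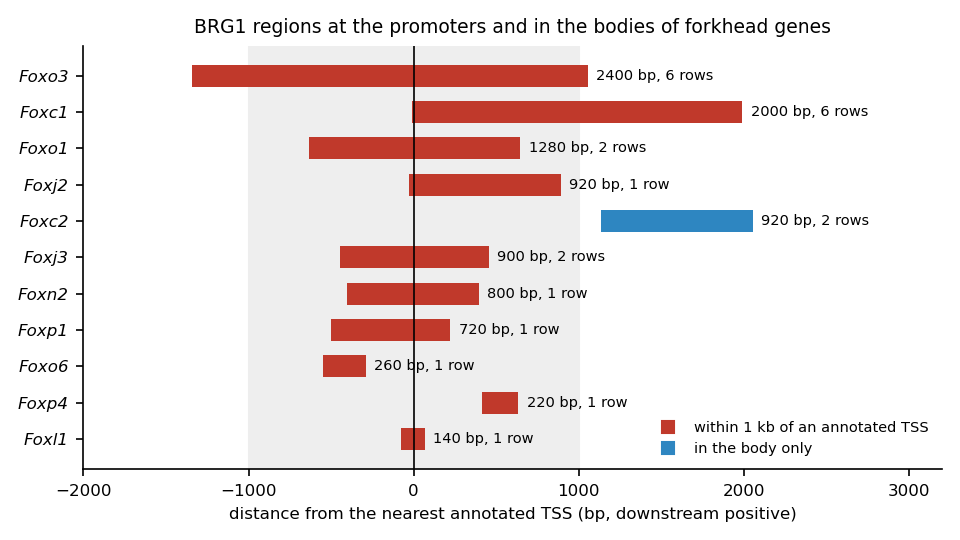
Position of the 11 regions at the promoters or in the bodies of forkhead genes, relative to the nearest annotated TSS (x axis, bp, downstream positive), from the widest to the narrowest, with width and number of rows. Red regions lie within 1 kb of a TSS (grey band) and the blue region of Foxc2 lies in the body only; Foxo3 and Foxc1 stand out at 2400 and 2000 bp.

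In composition the 11 regions at forkhead promoters and bodies lay near the rest. They had a median of 11.3 CpGs per 100 bp and a GC content of 69.3%, against 12.2 and 74.2% in regions at promoters of other protein-coding genes and 11.2 and 72.4% in all distinct regions. The lowest values were in the Foxp4 region, with 1.82 CpGs per 100 bp and 56.8% GC, and the Foxl1 region, with 5.71 CpGs per 100 bp. The highest CpG value was in the Foxj3 region, at 14.3.

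**Figure D5:**
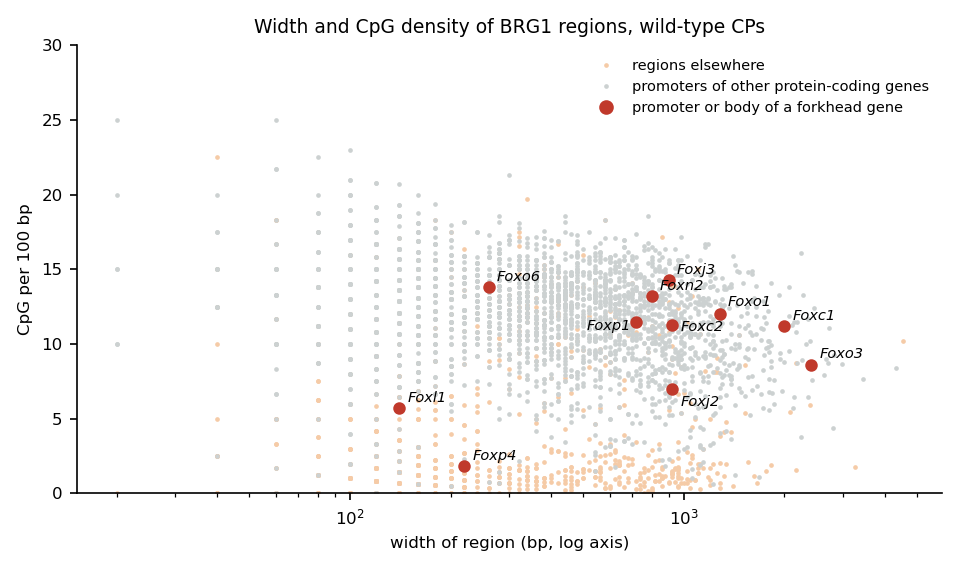
Width (x axis, bp, log scale) and CpG dinucleotides per 100 bp (y axis) of all 3473 distinct regions, with the 11 at forkhead promoters or bodies in red and named, those at promoters of other protein-coding genes in grey and the remainder in light orange. The Foxp4 region, at 220 bp and 1.82 CpGs per 100 bp, has the lowest CpG density of the 11, and the Foxj3 region, at 14.3, the highest.

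Words that developmental transcription factors bind were searched in the same sequences. The forkhead word TGTTTAC, on either strand, occurred in the regions of Foxo1 and Foxp4 and in none of the other regions within 100 kb of members. In a fixed 300 bp at the centre of each region, which leaves out the word at Foxo1, it occurred in 1 of 11 regions at forkhead promoters and bodies (9.09%) and in 2.07% of all 3473. In the 2 kb around the outermost TSS it occurred in 6 of 34 members (17.6%) and in 20.7% of other protein-coding genes. The GATA word AGATAA occurred in the 2 kb window of 8 members (23.5%) and of 57.8% of the others, and the T-box core GGTGTGA in 4 (11.8%) and 23.2%. For each word the other genes were not matched on CpG count. At the richest TSS the median count was 148 in the members and 66 in the others. Within the regions near the members, AGATAA was not found, while 8.72% of all regions had it in their central 300 bp. No word contains another, and a match describes the sequence and not a bound site.

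Nearly all of the sequence at these promoters is unique in the genome. Of the 34 windows of 2 kb around the outermost TSS, 32 consisted wholly of words of 75 bases, the length of the reads, that occur once in mm9. The lowest share of such words was 97.0% at Foxn3, followed by 98.4% at Foxh1.

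Partners and regulators of forkhead proteins, taken as a list of 32 genes by known function, had a region at the promoter in 14 cases (43.8%, interval 28.2% to 60.7%), where their CpG-matched genes had 30.2% and all protein-coding genes outside the family 11.9%. Among genes that act with FOXH1 in Nodal signaling, 5 of 8 had one. They included Smad2, Smad3 and Smad4, which encode the SMAD proteins of that pathway, and its target Mixl1. Nodal, Lefty1 and Lefty2 had none at the promoter, and neither had Foxh1 itself. Among genes that control FoxO proteins, 4 of 9 had one at the promoter, including the kinase gene Akt1 and the receptor gene Igf1r. Akt2, Sgk1, Sirt1, Insr and Pdpk1 had none there. With FOXM1, the counts were 2 of 5 (Mybl2 and Lin9), among hedgehog pathway genes 2 of 5 (Ptch1 and Gli3), among genes of FOXP-bound corepressors 1 of 3 (Hdac2) and of the FOXK-bound SIN3 proteins 0 of 2. Over the whole list of 32, a region lay in the body of 13 genes (40.6%, matched 34.1%) and within 100 kb of 18 (56.2%, matched 57.4%). The list was not tested.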

How the data were processed

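For wild-type CPs, reads were trimmed by the authors (fastq-mcf) and mapped with Bowtie to mm9. After a filter on mapping quality, they took genomic bins with enrichment over the input. They deposited 4791 rows of chromosome, start and end, without a height or score. The tool versions and the way in which the 2 ChIP libraries were combined are not given in the sources used here.

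Rows were reduced to 3473 distinct regions. The study gives the number of rows as its count of CP sites, and the number of distinct regions equals its count of cardiomyocyte sites. Why rows repeat, and whether the list differs from that of cardiomyocytes, could not be settled here, so that the regions are of CPs by the label of the list only. Starts were read as counted from 0 and are printed counted from 1. Regions were compared with the mm9 sequence and GENCODE M1 using Python 3.11.15, pandas 2.3.3, numpy 2.4.6, scipy 1.17.1, pysam 0.24.0, numba 0.67.0 and samtools 1.23.1, and plotted with matplotlib 3.10.9. Matched shares are means over members of the share among all other protein-coding genes with a CpG count within 5, and for body and 100 kb also with a length within a factor of 1.5 or a number of genes within 100 kb within 2. The calls and the matching were tested on a simulated list. No significance test was run, as a single list has no replicates. Members with a region at the promoter or in the body are described in full, the others by their nearest region. The members, lists and roles were chosen with earlier results of these data known. Sequence words were searched on both strands. Some genes of the partner list are not reported here by name.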

Additional observations from a re-analysis of the deposited data

How the results depend on the processing

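Across 37 alternative settings of 7 results, 4 of them chosen after seeing the data, and 22 stayed within the interval of the main value or within 1.5 times of a count. The share of members with a region at the promoter lay between 20.6% and 32.4% under the alternatives, apart from regions on more than 1 row only, which gave 11.8%, and there the CpG-matched share was 13.4%. With that restriction the share in the body was 14.7% and that within 100 kb 23.5%, as fewer regions remain. Outside the promoter, 2.94% of the members had a region in the body (Foxc2). Counting rows gave 22 at forkhead promoters in place of 10 regions. The CpG-matched share at promoters was 31.6% with the count at the outermost TSS, 31.9% when matched on GC content, 32.5% with the number of TSSs also matched, 30.7% with calls at the outermost TSS too, and 29.2% for regions of at least 200 bp. The matched share in the body was 12.0% on gene length only and 33.8% on CpG count only, and that within 100 kb was 38.8% on gene number only and 60.8% on CpG count only.

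At the promoter, between 3 and 8 of the 13 genes of widely expressed classes and between 1 and 3 of the 21 lineage genes had a region under the alternatives tried. For regions on more than 1 row only, these were 3 and 1, with matched shares of 16.7% and 11.3%. Foxp1 and Foxp4 were lost with the outermost TSS only, Foxp4 with protein-coding transcripts only, and Foxl1 with regions of at least 200 bp. No paired analysis was possible because a single list stands for both ChIP libraries. It carries no height by which its regions could be filtered further, and at unknown depth the absence of a region is no evidence that BRG1 is absent.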

Other observations

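Other families of developmental transcription factors are given as shares beside the forkhead genes, without a test. Annotation entries were counted, so that Sox4 and Hoxa3, each with 2 entries under 1 symbol, count for each. Of 16 T-box genes, 3 had a region at the promoter (18.8%, 95% Wilson interval 6.59% to 43.0%), where their CpG-matched genes had 19.7%, and 10 had one within 100 kb (62.5%, matched 47.0%). Tbx3 had the most, with 5 regions within 100 kb. Of 19 Sox entries, 4 had a region at the promoter (21.1%, interval 8.51% to 43.3%, matched 34.4%), namely Sox5, Sox11, Sox13 and Sox21. None of the 6 Gata genes had one (upper bound 39.0%, matched 19.5%), although Gata4 had 2 regions in its body. None of the 40 Hox entries had one at the promoter (upper bound 8.76%, matched 20.7%), and 9 of them, all of the HoxB cluster, had a region within 100 kb (22.5%, matched 61.0%). Genes of a Hox cluster share their neighbourhood and are not independent.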
